A study of Rattus norvegicus with 9 samples.

Results

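The mRNAs of cytosolic ribosomal proteins and of translation factors were followed in isolated rat ureteric buds grown in 3 media. In the embryo this bud is an epithelial tube that grows, divides into tips and becomes the kidney's collecting ducts. Members were all probe sets whose platform symbol begins with Rpl or Rps and names a ribosomal protein (Rps6k kinases left out), or begins with Eif, Eef1 or Eef2. Of 15866 probe sets on the array other than controls, 148 matched, and 116 of these carried exactly 1 symbol and are described by name. They comprised 50 probe sets for 44 ribosomal protein genes and 66 probe sets for 56 translation factor genes. The other 32 carried several symbols and are given as counts. After a filter on low signals, 47 ribosomal protein probe sets (42 genes) and 63 factor probe sets (54 genes) were tested. The filter removed Rpl30, Rpl3l, Eif4e3 and Eef1akmt4, and 1 of several probe sets each of Rpl14 and Eef2k.

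Buds came from Sprague-Dawley rat embryos at embryonic day 13, and each sample held RNA from 3 buds grown for 4 days in a gel mixed from equal parts of type 1 collagen and Matrigel low in growth factors. The HRG group received recombinant human heregulin alpha at 500 ng/ml, a ligand of ErbB receptors. The PTN group received pleiotrophin at about 3 µg/ml, a heparin-binding growth factor purified from the conditioned medium of the BSN group. The BSN group received what a cell line of metanephric mesenchyme releases into its medium, which includes pleiotrophin. All 3 media also held FGF1 at 250 ng/ml and GDNF at 125 ng/ml, so no group shows the buds with these 2 factors alone. The series title counts PTN and BSN as branching conditions and HRG as non-branching, whereas the descriptions of the PTN samples call their growth non-branching. Each group had 3 arrays, described as biological replicates.

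A cytosolic ribosome joins a small subunit, which reads the mRNA, to a large subunit, which forms the peptide bond, and each carries its own set of ribosomal proteins. Initiation factors bring the small subunit to the capped mRNA and find the start codon, and elongation factors then deliver aminoacyl-tRNAs and move the ribosome along. In mammals most ribosomal protein mRNAs, and those of several elongation factors, begin with a stretch of pyrimidines through which mTOR signalling controls their translation. That control acts on translation of the mRNA, so an array of mRNA levels does not measure it.

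The deposited values are linear signal intensities whose trimmed mean was 2500.48 to 2500.58 on every array, and differences are given as fitted log2 changes of signal plus 16. A change was called at an adjusted p under 0.05 from limma's moderated test, adjusted by Benjamini-Hochberg across the 10106 probe sets that were kept. Correlations of log2 signal ran from 0.946 to 0.979 between arrays of one medium and from 0.882 to 0.937 between arrays of different media. PTN replicate 1 stood apart in the ribosomal proteins and was given a weight of 0.238 when array weights were estimated. For the actin controls the ratio of 3' to 5' signal, which reflects how much of a transcript's length was amplified, was 25.2 ± 5.84 in HRG, 16.6 ± 1.4 in PTN and 33.2 ± 4.92 in BSN (SD, n = 3 each). The ratio of the GAPDH probes was 2.93 ± 0.801 in HRG, 5.15 ± 1.98 in PTN and 4.57 ± 1.11 in BSN. The actin ratios of the PTN arrays lay below those of the other media, while the GAPDH ratio of PTN replicate 1 lay within the HRG range and PTN overlapped BSN. The part of these ratios in the results was not tested. Summed signals of 11 ureteric bud epithelial markers ran from 158127 to 173973 in HRG, from 135264 to 159167 in PTN and from 163046 to 174027 in BSN, and 10 of the 11 were kept. None of 4 mesenchymal markers (Wt1, Meox2, Tmem100 and Gdnf) passed the filter, with sums of 867 to 1606 over the 9 arrays. Summed signals of 6 neuronal markers were 3336 to 4470 in HRG, 7104 to 8865 in PTN and 8360 to 10051 in BSN. Of the 5 kept, 4 were lower in HRG against BSN, 2 in HRG against PTN and 1 in PTN against BSN, with none higher. Kdr, the 1 kept of 4 endothelial markers, had signals of 329 ± 27.6 in HRG, 840 ± 229 in PTN and 742 ± 29.5 in BSN, and was lower in HRG against both (adjusted p of 0.00258 against PTN and 0.00792 against BSN). Sums of 8 stromal markers (4 kept) were 3302 to 4334 in HRG, 3615 to 4551 in PTN and 3948 to 4966 in BSN, and those of 5 blood markers (2 kept) 2041 to 2710, 1923 to 2717 and 2687 to 2736, with no kept member passing. The part of these cell types in the results was not tested. In bulk RNA of this kind, fewer cells of a type and less RNA per cell cannot be told apart.

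With all 9 arrays, few ribosomal protein mRNAs passed the test when HRG was set against the other media, and those that passed between PTN and BSN went both ways. In HRG against BSN 2 of the 47 probe sets rose and none fell, a share of 4.26% beside 15.8% of all kept probe sets (6.92% higher and 8.86% lower). By the same limma fit 8 had an unadjusted p under 0.05. In HRG against PTN 5 rose and none fell (10.6%, beside 25.8% of all, 14.1% higher and 11.7% lower), with 12 at an unadjusted p under 0.05. That count depended on 1 array, since without PTN replicate 1 it was 15 (31.9%, beside 30.8% of all). With array weights it was 13 (27.7%, beside 3460 of all 10106 kept probe sets). In PTN against BSN 6 rose and 5 fell (23.4%, beside 22.5% of all, 9.15% higher and 13.4% lower), a share near that of all probe sets. The 3 arrays of one medium lay wholly above those of the other for 10 probe sets and wholly below for 1 in HRG against BSN, where 37.0% of all kept probe sets did not overlap (16.1% higher and 20.9% lower). For HRG against PTN the counts were 5 and 1, beside 40.2% of all (22.9% and 17.4%), and for PTN against BSN 9 and 6, beside 38.5% of all (14.7% and 23.8%). The median log2 change of the 47 was 0.11 in HRG against BSN, where that of all kept probe sets was -0.04. It was 0.03 in HRG against PTN, where that of all was 0.08, and 0.00 in PTN against BSN, where that of all was -0.11. Without PTN replicate 1 it was 0.15 in HRG against PTN and -0.07 in PTN against BSN, and after median centring -0.08 and 0.21. The median size of a ribosomal protein change, sign left aside, was 0.158, 0.174 and 0.263 on the log2 scale in these 3 comparisons, against 0.226, 0.29 and 0.291 for all kept probe sets. Among probe sets with a mean signal over 10000 the called shares were 3.03%, 6.06% and 21.2% for the 33 ribosomal proteins and 19.2%, 34.8% and 30.5% for the 1046 other probe sets.

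**Figure D1:**
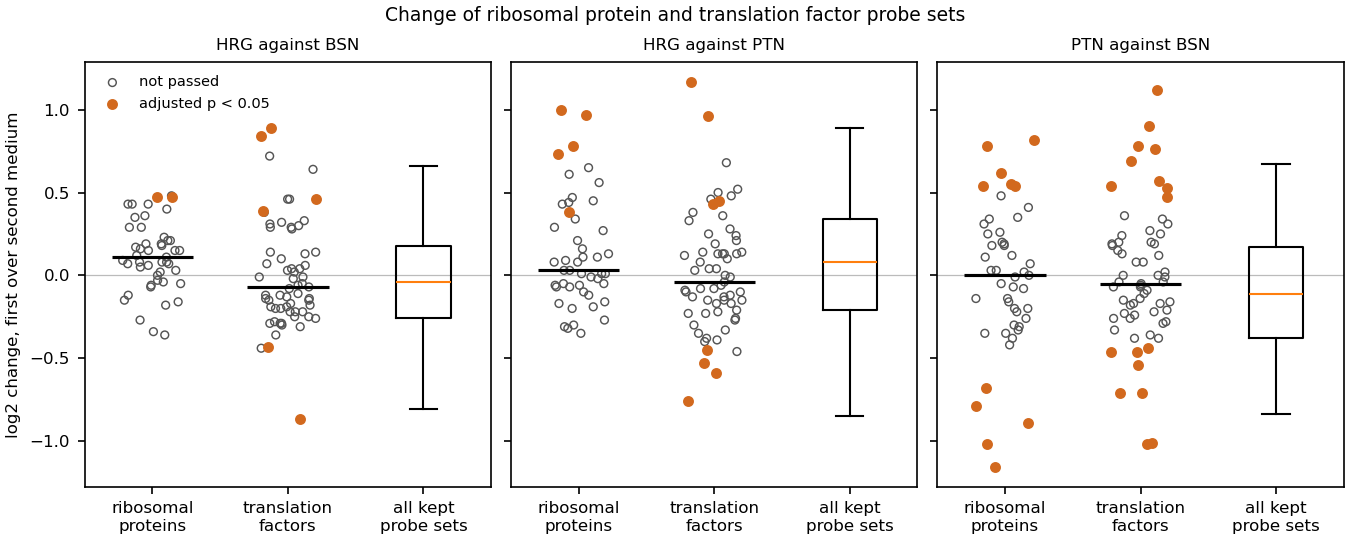
Fitted log2 changes of the 47 kept ribosomal protein and 63 kept translation factor probe sets in 3 comparisons, first medium over second; filled points have an adjusted p under 0.05 and thick lines are medians. Boxes show the quartiles of all 10106 kept probe sets with whiskers at the 5th and 95th percentiles; the ribosomal protein medians lie at 0.11, 0.03 and 0.00, and the calls in PTN against BSN lie on both sides of 0.

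By subunit, in PTN against BSN 4 of 15 small subunit probe sets rose and 3 fell, while 2 of 28 large subunit probe sets rose and 2 fell (46.7% and 14.3%, beside 22.5% of all). In HRG against PTN 2 small subunit and 2 large subunit probe sets rose (13.3% and 7.14%, beside 25.8% of all). In HRG against BSN 1 of each rose (6.67% and 3.57%, beside 15.8% of all). The difference between the subunits was not tested. The summed signal of the 47 kept ribosomal protein probe sets was 2.76 ± 0.208% of all signal in HRG (SD, n = 3 each medium). It was 2.7 ± 0.38% in PTN and 2.61 ± 0.245% in BSN. The groups' spreads overlapped in that share.

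Rps15a and Rpl41 were lower in PTN than in both other media, and Rpl26, Rps28 and 1 probe set of Rps24 fell against BSN. Rps15a, a protein of the small subunit, had signals of 19386, 17287 and 20293 in HRG, of 13027, 8232 and 7891 in PTN, and of 23175, 17310 and 23664 in BSN. All 3 PTN arrays lay below all 6 others, and the HRG and BSN arrays overlapped. The fitted log2 change was 1.00 (SE 0.189, adjusted p = 0.00194) in HRG against PTN and -1.16 (SE 0.189, adjusted p = 0.00122) in PTN against BSN, which is 2.24-fold lower in PTN. Rpl41, the smallest protein of the large subunit, had signals of 12362, 9126 and 11313 in HRG, of 7041, 5400 and 4492 in PTN, and of 11330, 9628 and 13049 in BSN. Its PTN arrays were again the lowest of the 9, with a log2 change of 0.97 (SE 0.183, adjusted p = 0.00197) in HRG against PTN and -1.02 (SE 0.183, adjusted p = 0.00218) in PTN against BSN. Both calls of both genes held under all 19 alternatives, which are named with the processing.

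Rpl26, a large subunit protein near the exit of the peptide tunnel, had signals of 35400, 25243 and 21570 in HRG, of 20993, 18522 and 15496 in PTN, and of 39308, 26864 and 36719 in BSN. It fell by 0.89 on the log2 scale in PTN against BSN (SE 0.194, adjusted p = 0.0063). HRG against PTN missed the threshold (log2 0.56, adjusted p = 0.0503), although the 3 arrays of each medium did not overlap. Rps28, a small subunit protein, had signals of 24274, 17071 and 16168 in HRG, of 19075, 11375 and 8652 in PTN, and of 22405, 19204 and 22422 in BSN. PTN replicate 1 lay within the HRG range, and just below the lowest BSN array. Rps28 fell by 0.79 on the log2 scale in PTN against BSN (adjusted p = 0.0334), and that call was lost when either BSN replicate 1, 2 or 3 or PTN replicate 2 or 3 was left out (adjusted p from 0.0573 to 0.132), and with each array centred on its median (adjusted p = 0.0733). It was also lost without the filter (adjusted p = 0.0681) or without the intensity trend (adjusted p = 0.0542).

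The Rps24 gene, which encodes another small subunit protein, gave a different picture with each of its 2 probe sets. Probe set 1369966_a_at had signals of 5257, 5009 and 4689 in HRG, of 4218, 2634 and 2415 in PTN, and of 5568, 4119 and 4863 in BSN. Its log2 change was 0.73 in HRG against PTN (adjusted p = 0.0152) and -0.68 in PTN against BSN (adjusted p = 0.025). Probe set 1390494_at had signals of 3237, 3165 and 2394 in HRG, of 3052, 2964 and 2234 in PTN, and of 2669, 2149 and 1859 in BSN. Its log2 changes were 0.09 in HRG against PTN (adjusted p = 0.751) and 0.31 in PTN against BSN (adjusted p = 0.244), so a lower Rps24 level in PTN rests on 1 probe set. Leaving out HRG replicate 1, PTN replicate 2 or PTN replicate 3 ended the HRG against PTN call of the first probe set (adjusted p from 0.0546 to 0.0658). Its PTN against BSN call was lost without BSN replicate 1 or 3 or PTN replicate 2 or 3 (adjusted p from 0.0746 to 0.101), and with each array centred on its median (adjusted p = 0.0738). That call was also lost with only the groups compared (adjusted p = 0.0535).

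Another set of ribosomal protein mRNAs was higher in PTN than in BSN, led by Rps3. Rps3 lines the channel through which mRNA enters the small subunit. It had signals of 38994, 39987 and 52002 in HRG, of 58735, 50703 and 56723 in PTN, and of 31164, 28270 and 34777 in BSN. The BSN arrays were the lowest 3 of the 9, and the HRG and PTN arrays overlapped by 1 HRG array. Rps3 rose by 0.82 on the log2 scale in PTN against BSN (SE 0.132, adjusted p = 0.00117, 1.77-fold), a call that held under all alternatives run. It also rose in HRG against BSN (log2 0.47, SE 0.132, adjusted p = 0.0299), a call lost when BSN replicate 1 or 2 or HRG replicate 3 was left out (adjusted p from 0.0835 to 0.145). That call was also lost without the filter (adjusted p = 0.0919) or without the intensity trend (adjusted p = 0.0678).

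Rps16, also of the small subunit, had signals of 29074, 27838 and 33671 in HRG, of 36312, 31416 and 41857 in PTN, and of 23145, 20353 and 27679 in BSN. It rose in PTN against BSN (log2 0.62, adjusted p = 0.00914) with no overlap between these media. Rps9, which lies beside Rps3 at the mRNA entry, had signals of 9101, 10308 and 13589 in HRG, of 10029, 12996 and 18388 in PTN, and of 8171, 7010 and 8185 in BSN. It rose by 0.78 in PTN against BSN (adjusted p = 0.0167), and the call was lost without BSN replicate 2 (adjusted p = 0.0638) or PTN replicate 3 (adjusted p = 0.0682). Rpl37a, a zinc-binding protein of the large subunit, had signals of 27238, 26158 and 23968 in HRG, of 34303, 29429 and 32320 in PTN, and of 20633, 20196 and 25234 in BSN. PTN lay above all other arrays for Rpl37a, and the rise over BSN (log2 0.54, adjusted p = 0.00776) held under all alternatives run.

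Rpl14, a large subunit protein, was at a similar height in HRG and PTN and lower in BSN. Its signals were 8470, 8857 and 10562 in HRG, 10481, 9034 and 9626 in PTN, and 7596, 6270 and 6229 in BSN. It rose in HRG against BSN (log2 0.47, adjusted p = 0.0347) and in PTN against BSN (log2 0.54, adjusted p = 0.0144). The HRG against BSN call was lost without BSN replicate 2 or 3 or HRG replicate 2 or 3 (adjusted p from 0.0751 to 0.163), and the PTN against BSN call without BSN replicate 2 (adjusted p = 0.0539) or 3 (adjusted p = 0.0633). The HRG against BSN call of Rpl14 was also lost with quantile normalization (adjusted p = 0.0508) or without the intensity trend (adjusted p = 0.0531). Rpsa, a small subunit protein first described as a laminin receptor precursor, has 3 probe sets. Probe set 1367569_at rose in PTN against BSN (log2 0.55, adjusted p = 0.0471), where the 3 probe sets ranged from 0.02 to 0.55. That probe set had signals of 7511, 8595 and 7873 in HRG, of 11706, 7733 and 7212 in PTN, and of 4995, 6509 and 6431 in BSN. Its call was lost in 13 of 19 alternatives, among them leaving out any 1 array other than PTN replicate 3 (adjusted p from 0.0521 to 0.17).

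**Figure D2:**
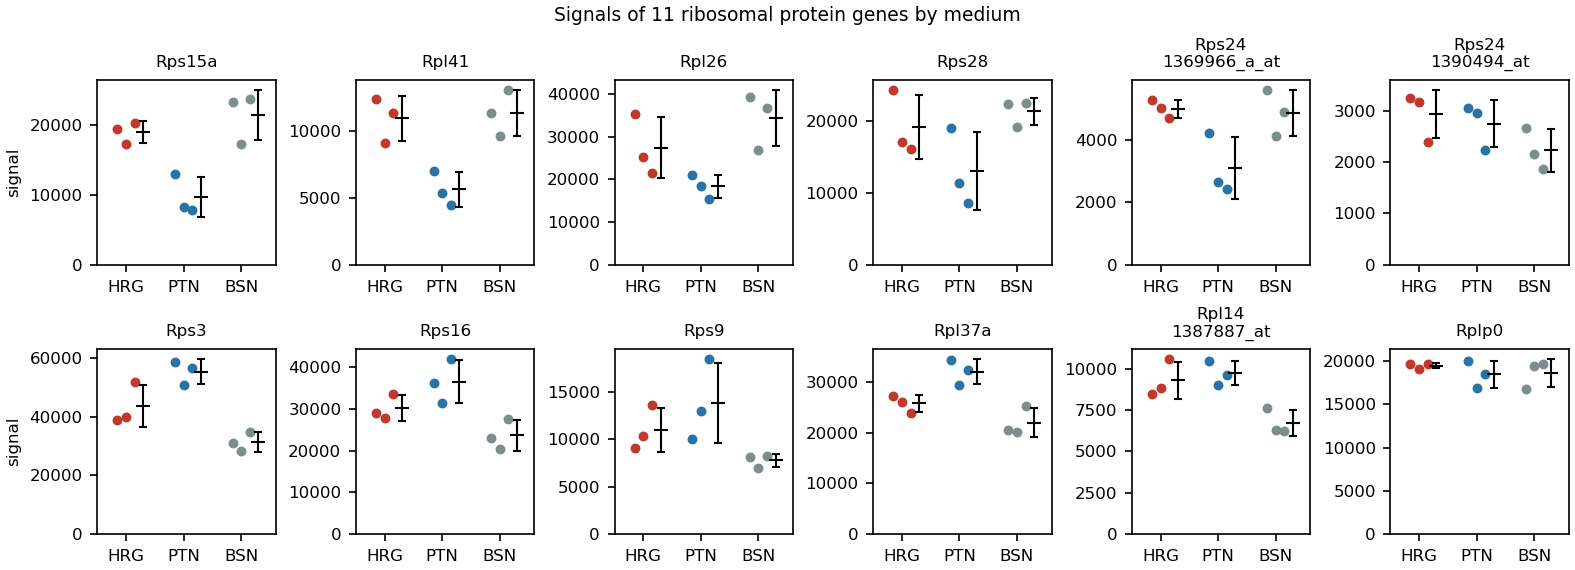
Signals (linear scale) of 11 ribosomal protein genes on each of 9 arrays by medium, with mean and SD (n = 3) beside the points; replicates 1 to 3 run from left to right within a medium. Rps15a and Rpl41 are lowest on the 3 PTN arrays, Rps3, Rps16 and Rpl37a are highest in PTN and lowest in BSN on average, the 2 Rps24 probe sets differ, and Rplp0 is level.

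The other calls in HRG against PTN were Rpl35a and Rps27l. Rpl35a, a large subunit protein, had signals of 18962, 18178 and 21398 in HRG, of 15310, 15131 and 14417 in PTN, and of 17439, 16246 and 17699 in BSN. The 3 media did not overlap for Rpl35a, and it rose in HRG against PTN (log2 0.38, SE 0.113, adjusted p = 0.0259). The call was lost without HRG replicate 1 or 3 or PTN replicate 2 or 3 (adjusted p from 0.0516 to 0.116) and with each array centred on its median (adjusted p = 0.144). It was also lost with only the groups compared (adjusted p = 0.0559). Rps27l, a paralog of Rps27 that p53 induces in human cells, had signals of 1413, 1142 and 866 in HRG, of 873, 594 and 513 in PTN, and of 1082, 851 and 704 in BSN. It rose in HRG against PTN (log2 0.78, adjusted p = 0.0379) with overlapping arrays, and the call was lost in 9 of 18 alternatives, among them leaving out BSN replicate 2 (adjusted p = 0.0523), HRG replicate 1 or 2 or PTN replicate 2 or 3 (adjusted p from 0.0936 to 0.157).

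Rplp0 and Rps6, often used as a loading reference and a phosphorylation read-out, had fitted changes under 0.1 on the log2 scale. Rplp0, the base of the ribosomal stalk, averaged 19480 ± 311 in HRG, 18473 ± 1568 in PTN and 18615 ± 1571 in BSN (SD, n = 3 each). Its log2 changes were 0.07, 0.08 and -0.01 in HRG against BSN, HRG against PTN and PTN against BSN, with adjusted p from 0.66 to 0.955. Rps6, the small subunit protein phosphorylated by S6 kinases, averaged 73921 ± 9399 in HRG, 77602 ± 10527 in PTN and 75680 ± 6437 in BSN, and its log2 changes ran from -0.07 to 0.03. Rpl22, of the large subunit, averaged 53130 ± 5477 in HRG, 55544 ± 10546 in PTN and 41760 ± 16244 in BSN, with log2 changes of 0.43, -0.05 and 0.48 in the same comparisons. It did not pass in any (adjusted p from 0.172 to 0.899), although PTN against BSN passed without BSN replicate 3 (adjusted p = 0.048) and with median centring (adjusted p = 0.0445).

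**Figure D3:**
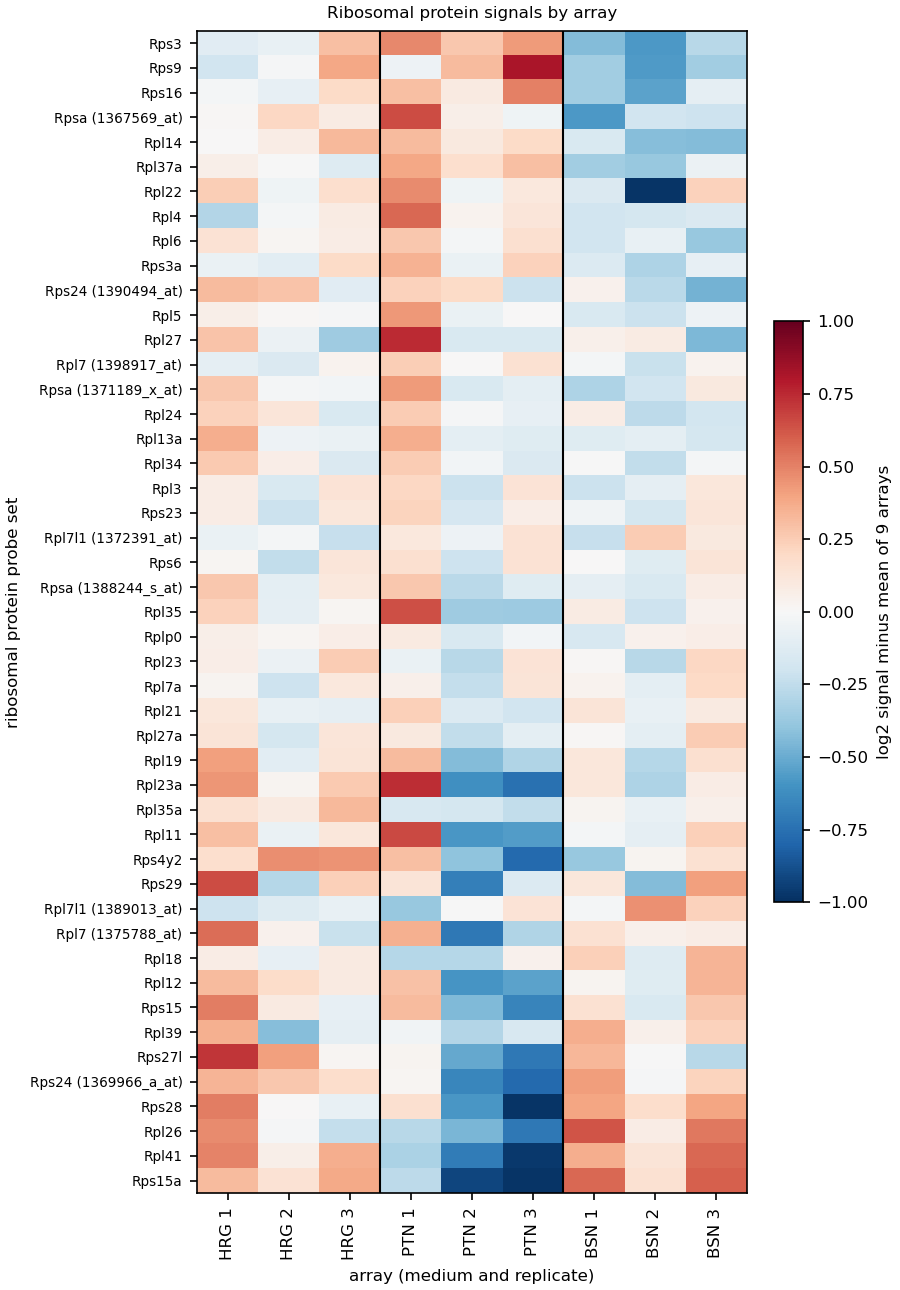
Log2 signal of each of the 47 kept ribosomal protein probe sets on 9 arrays, minus its mean over the 9 arrays, ordered by the change in PTN against BSN; columns are arrays grouped as HRG, PTN and BSN. Red is above and blue below the probe set's mean; the column of PTN replicate 1 is redder than the other PTN columns over most rows, and the lowest rows (Rps15a, Rpl41, Rpl26) are blue in PTN.

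The 3 PTN arrays did not give the same picture of the ribosomal proteins. PTN replicate 1 was the highest PTN array for 40 of the 47 kept probe sets (85.1%) and for 22 of 27 kept ribosomal protein probe sets with several symbols (81.5%). Among translation factors it was the highest for 29 of 63 (46.0%), and among the 9965 other kept probe sets for 4796 (48.1%). The median log2 deviation of the ribosomal proteins from each probe set's mean over the 9 arrays was 0.25 in PTN replicate 1. It was -0.17 and -0.10 in PTN replicates 2 and 3. In BSN, replicate 2 was the lowest array for 33 of 47, and for 25 of the 27 with several symbols. It was the lowest for 18 of 63 translation factors and for 3781 of the 9965 other kept probe sets.

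The largest excess of PTN replicate 1 was in Rpl23a, a large subunit protein at the tunnel exit where signal recognition particle docks. Rpl23a had signals of 20454, 15343 and 18050 in HRG, of 25125, 9837 and 8954 in PTN, and of 16296, 12117 and 15782 in BSN, so PTN replicate 1 was 2.67-fold above the other PTN arrays. Rpl11, which with 5S rRNA can bind the p53 regulator Mdm2, had signals of 22208, 17248 and 19498 in HRG, of 28600, 12066 and 12262 in PTN, and of 17823, 16984 and 21358 in BSN. In both genes 1 PTN array was above, and 2 were below, every array of the other media. With all 9 arrays neither passed, and their fitted changes in PTN against BSN were -0.16 for Rpl23a (adjusted p = 0.729) and -0.20 for Rpl11 (adjusted p = 0.609). Without PTN replicate 1 they were -0.64 (adjusted p = 0.00976) and -0.61 (adjusted p = 0.00601). The actin 3'/5' ratio was 15.3, 16.5 and 18.1 in PTN replicates 1 to 3 and the GAPDH ratio 2.97, 5.62 and 6.85; their part in the difference between these arrays was not tested.

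Leaving out PTN replicate 1 changed the count of calls most in HRG against PTN, where 15 ribosomal protein probe sets then rose and none fell, against 5 with all arrays. The 10 added were Rps4y2, Rps28, Rpl23a, Rpl12, Rps15, Rpl11, Rpl26, Rpl7 (1375788_at), Rpl19 and Rpl35, with log2 changes of 0.41 to 0.95, and all 5 calls of the full set were among the 15. The share over all kept probe sets was 30.8% without that array, against 25.8% with it. In PTN against BSN 5 ribosomal proteins rose and 10 fell without it, beside 31.9% of all. In this fit the 2 remaining PTN arrays are taken to vary like the other media.

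**Figure D4:**
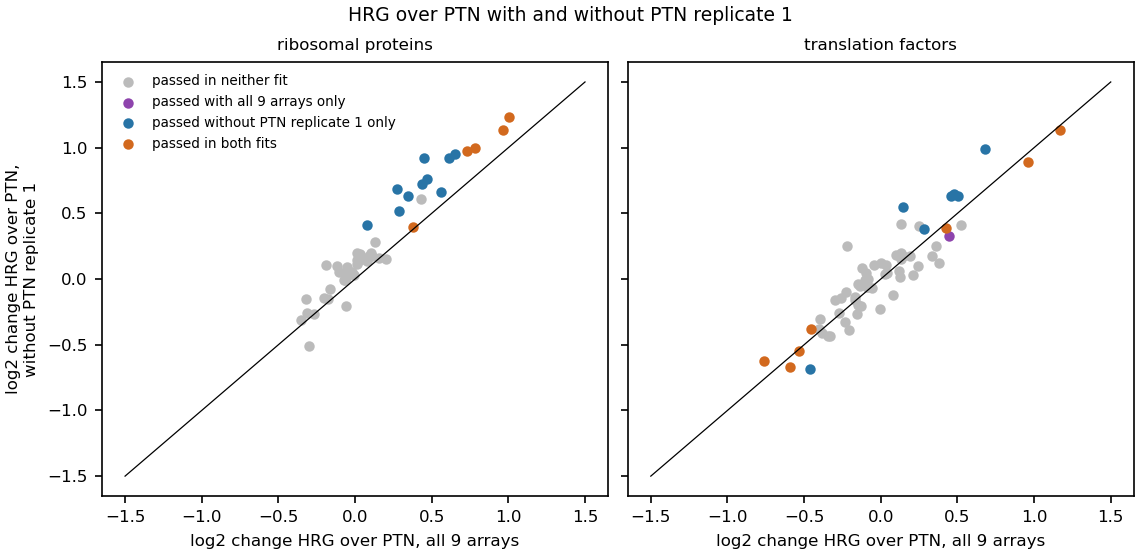
Fitted log2 change in HRG against PTN without PTN replicate 1 (vertical) against that with all 9 arrays (horizontal), for ribosomal proteins (left) and translation factors (right); the line marks equal values. Most ribosomal protein points lie above the line, and 10 of them pass the test without that array but not with all 9.

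Deviations from the group means of same-numbered HRG and PTN samples were correlated across probe sets at 0.266, 0.332 and 0.118. Pairing by replicate number was not established. With replicate number as a block 8 ribosomal proteins rose and 1 fell in HRG against PTN, a share of 19.1% beside 26.6% of all kept probe sets. The 4 added calls were Rps29 (log2 0.43, adjusted p = 0.0272), Rpl26 (adjusted p = 0.0149), Rps28 (adjusted p = 0.0226) and a fall of Rps3 (log2 -0.35, adjusted p = 0.0294). The split of calls also depended on scaling. Centring each array on its median moved the median change of all kept probe sets in PTN against BSN to 0.10, against -0.11 as deposited. With that centring 13 ribosomal proteins rose and 3 fell in PTN against BSN (34.0%, beside 2243 of all 10106 kept probe sets). In HRG against PTN 3 rose and 3 fell (12.8%, beside 2395 of the 10106). Rps15a, Rpl41 and Rpl26 still fell under that centring (log2 -0.95, -0.80 and -0.68, adjusted p of 0.0165 or less).

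To let the start regions of the genes be compared, 50 bases around the RefSeq gene start are given for the ribosomal proteins on which these comparisons turn, from 25 bases before the start to 25 bases after it (build GRCr8). Capitals mark the longest run of C and T that begins with C. The 5 genes with a fall in PTN against BSN were these, of which Rps24 fell by 1 of its 2 probe sets.
Rps15a, chr1:181860260-181860309, strand minus: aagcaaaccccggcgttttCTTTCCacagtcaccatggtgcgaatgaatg
Rpl41, chr7:1563473-1563522, strand minus: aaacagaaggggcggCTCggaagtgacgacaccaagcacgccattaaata
Rpl26, chr10:54109667-54109716, strand plus: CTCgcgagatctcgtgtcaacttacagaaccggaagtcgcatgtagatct
Rps28, chr7:15311309-15311358, strand minus: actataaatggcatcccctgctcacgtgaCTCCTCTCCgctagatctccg
Rps24, chr16:96492-96541, strand plus: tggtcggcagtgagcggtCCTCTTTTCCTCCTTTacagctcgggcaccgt
The 5 genes that were higher in PTN than in BSN, Rpsa left out, were these.
Rps3, chr1:163195752-163195801, strand minus: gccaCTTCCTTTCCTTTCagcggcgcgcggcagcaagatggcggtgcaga
Rps16, chr1:92770633-92770682, strand plus: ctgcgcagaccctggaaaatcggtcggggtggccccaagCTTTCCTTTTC
Rps9, chr1:74430413-74430462, strand minus: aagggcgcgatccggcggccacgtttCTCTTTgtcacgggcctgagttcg
Rpl14, chr8:129163595-129163644, strand plus: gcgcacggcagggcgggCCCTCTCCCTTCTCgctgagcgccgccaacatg
Rpl37a, chr9:81748066-81748115, strand plus: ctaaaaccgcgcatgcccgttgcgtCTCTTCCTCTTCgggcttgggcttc
The 2 level genes always reported were these.
Rplp0, chr12:46718366-46718415, strand minus: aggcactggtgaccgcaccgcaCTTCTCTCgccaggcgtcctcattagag
Rps6, chr5:106420516-106420565, strand minus: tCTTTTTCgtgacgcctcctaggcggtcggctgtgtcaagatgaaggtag

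The longest run was 16 bases in Rps24, 9 in Rps28, 6 in Rps15a and 3 in Rpl41 and Rpl26, among genes that fell in PTN against BSN. It was 14 bases in Rps3 and Rpl14, 12 in Rpl37a, 11 in Rps16, where it ends at the edge of the window, and 6 in Rps9, among genes higher in PTN. The level genes Rplp0 and Rps6 had runs of 8 and 7 bases. Over all members with a promoter sequence, 31 of 39 ribosomal protein genes (79.5%) and 22 of 51 factor genes (43.1%) held such a run of at least 6 bases in this window, against 6426 of 19005 protein-coding genes (33.8%, members included). The median longest run was 10 bases in ribosomal protein genes, 5 in factor genes and 5 in all. Further motifs, none of which contains another, were searched on both strands from 250 bases before to 50 after the start. CCGGAAGT, bound by ETS factors, was in 12.8% of ribosomal protein genes, 17.6% of factor genes and 4.99% of all, and AAGATGGC, bound by YY1, in 10.3%, 7.84% and 3.92%. The E-box CACGTG was in 7.69%, 21.6% and 7.27%, and the SP1 box GGGCGG in 61.5%, 70.6% and 43.1%. A match is a description of the letters and not a bound site, and RefSeq starts need not be those used in these buds.

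Translation factors, too, had a smaller called share than all probe sets where HRG was compared, and calls in both directions between PTN and BSN. In HRG against BSN 4 of 63 rose and 2 fell (9.52%, beside 15.8% of all), and in HRG against PTN 4 rose and 4 fell (12.7%, beside 25.8%). Without PTN replicate 1 the second count was 9 higher and 5 lower (22.2%, beside 30.8%). In PTN against BSN 9 rose and 8 fell (27.0%, beside 22.5%). Their arrays did not overlap for 24, 20 and 24 of the 63 probe sets in HRG against BSN, HRG against PTN and PTN against BSN, beside 37.0%, 40.2% and 38.5% of all kept probe sets. The median log2 change was -0.07, -0.04 and -0.05 in these comparisons. After median centring 6 rose and none fell in HRG against BSN, and 2 rose and 6 fell in HRG against PTN. In PTN against BSN 12 rose and 4 fell with that centring. The called shares were then 9.52%, 12.7% and 25.4%, beside 1478, 2395 and 2243 of all 10106 kept probe sets. Of the calls on both classes together, 49 over the 3 comparisons, 21 held under every alternative run and 28 were lost in at least 1.

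The RNA helicase of the cap-binding complex eIF4F, which unwinds the leader of the mRNA, gave the largest rises over BSN among the called factors. Eif4a2 had signals of 22848, 30317 and 32272 in HRG, of 20729, 33808 and 32258 in PTN, and of 16966, 15775 and 12990 in BSN. All HRG and PTN arrays lay above all BSN arrays, and Eif4a2 rose by 0.89 in HRG against BSN (SE 0.193, adjusted p = 0.00673) and by 0.90 in PTN against BSN (SE 0.193, adjusted p = 0.00597). Its close relative Eif4a1 had signals of 12923, 11762 and 8367 in HRG, of 14781, 12441 and 15933 in PTN, and of 7959, 8753 and 4063 in BSN. Eif4a1 rose by 1.12 in PTN against BSN (SE 0.254, adjusted p = 0.00796, 2.18-fold), while HRG overlapped BSN by 1 array and did not pass (log2 0.72, adjusted p = 0.0762). These 3 calls held under all alternatives run. Another relative, Eif4a3, is the helicase of the exon junction complex rather than an initiation factor, and it fell in HRG against PTN (log2 -0.45, adjusted p = 0.0133) with signals of 11143, 11950 and 11773 in HRG, of 17498, 14764 and 15584 in PTN, and of 12539, 13292 and 14343 in BSN.

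The other parts of the cap-binding group gave few calls, some from conflicting probe sets. Eif4e, which binds the cap, was measured by 2 probe sets, and neither passed in any comparison (log2 changes from -0.36 to 0.24), apart from a rise by 1398799_at in PTN against BSN when PTN replicate 1 was left out (adjusted p = 0.0493). Eif4g1, the scaffold that joins eIF4E to the helicase, had 2 probe sets that moved in opposite directions. Probe set 1388322_at averaged 5836 ± 1080 in HRG, 7621 ± 918 in PTN and 5232 ± 197 in BSN, and rose in PTN against BSN (log2 0.54, adjusted p = 0.0251). Probe set 1390340_a_at averaged 876 ± 228 in HRG, 812 ± 304 in PTN and 1586 ± 196 in BSN, and fell both in HRG against BSN (log2 -0.87, adjusted p = 0.0363) and in PTN against BSN (log2 -1.01, adjusted p = 0.0143). No direction is given for the gene. The first call was lost without BSN replicate 1, 2 or 3 or PTN replicate 3 (adjusted p from 0.0577 to 0.0751). The fall in HRG was lost without BSN replicate 1, 2 or 3 or HRG replicate 1 or 2 (adjusted p from 0.0661 to 0.133), and that in PTN without BSN replicate 2 or PTN replicate 2 or 3 (adjusted p from 0.0539 to 0.0581). The fall in HRG was also lost with median centring (adjusted p = 0.0579), without the filter (adjusted p = 0.0756) or with the replicate block (adjusted p = 0.05). Eif4g2, a relative of eIF4G that lacks the eIF4E-binding site, fell in HRG against PTN by probe set 1388359_at (log2 -0.53, adjusted p = 0.0201), with signals of 9110, 12153 and 13671 in HRG, of 16329, 15590 and 18024 in PTN, and of 13755, 12875 and 12158 in BSN. Its second probe set gave -0.15 (adjusted p = 0.361), and the call of the first was lost without HRG replicate 1 (adjusted p = 0.0826) or PTN replicate 3 (adjusted p = 0.0718).

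**Figure D5:**
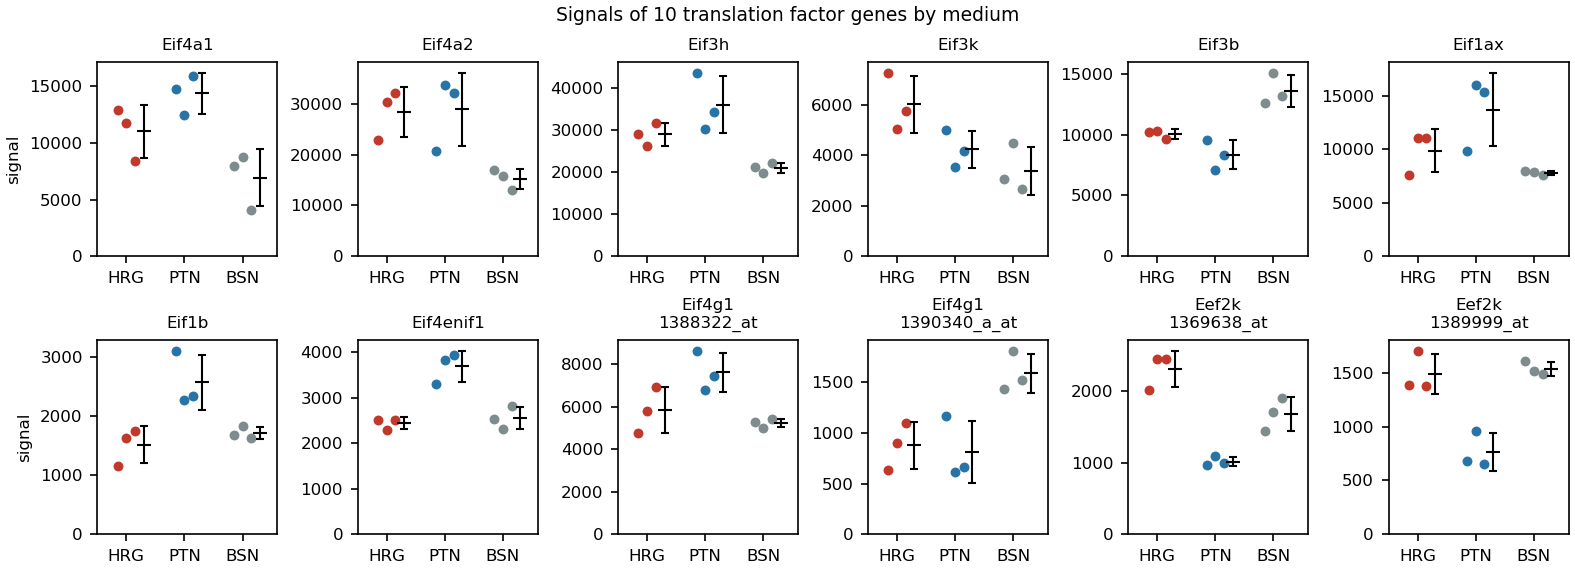
Signals (linear scale) of 10 translation factor genes on each of 9 arrays by medium, with mean and SD (n = 3) beside the points; replicates 1 to 3 run from left to right within a medium. Eif4a2 and Eif3h are lowest on the BSN arrays, the 2 Eif4g1 probe sets run in opposite directions, and both Eef2k probe sets are lowest on the 3 PTN arrays.

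The eIF4E-binding proteins, which hold eIF4E away from eIF4G when not phosphorylated, moved differently among themselves. Eif4ebp2 had signals of 8177, 7840 and 7371 in HRG, of 5458, 6107 and 5821 in PTN, and of 8544, 7429 and 9469 in BSN, so that PTN lay below all other arrays. It rose in HRG against PTN (log2 0.43, adjusted p = 0.0286) and fell in PTN against BSN (log2 -0.54, adjusted p = 0.0104). After median centring neither call remained (adjusted p of 0.132 and 0.118), and the first was also lost without HRG replicate 1, 2 or 3 or PTN replicate 3 (adjusted p from 0.0539 to 0.0895) and the second without BSN replicate 3 (adjusted p = 0.0554). Eif4ebp1 averaged 2716 ± 124 in HRG, 1977 ± 447 in PTN and 2223 ± 403 in BSN and did not pass. HRG against PTN (log2 0.48, adjusted p = 0.067) passed only with array weights (adjusted p = 0.00727) or without PTN replicate 1 (adjusted p = 0.00906). Eif4enif1, which carries eIF4E into the nucleus and to processing bodies, had signals of 2515, 2291 and 2524 in HRG, of 3312, 3828 and 3942 in PTN, and of 2530, 2323 and 2812 in BSN. All PTN arrays lay above all other arrays, with a log2 change of -0.59 in HRG against PTN (adjusted p = 0.00592) and 0.53 in PTN against BSN (adjusted p = 0.0135). The second call was lost without BSN replicate 2 (adjusted p = 0.0535) or PTN replicate 3 (adjusted p = 0.052).

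Among 11 subunits of eIF3, the large complex that holds the small subunit ready for mRNA, 3 rose and 1 fell in HRG against BSN, none passed in HRG against PTN (4 at an unadjusted p under 0.05), and 1 rose and 1 fell in PTN against BSN. The called shares were 36.4%, 0% and 18.2%, beside 15.8%, 25.8% and 22.5% of all kept probe sets. In HRG against PTN Eif3i rose with the replicate block (log2 0.46, adjusted p = 0.0438), and Eif3i, Eif3b and Eif3k rose without PTN replicate 1 (adjusted p of 0.00641, 0.038 and 0.0396). Eif3h had signals of 29136, 26209 and 31561 in HRG, of 43490, 30290 and 34238 in PTN, and of 21249, 19818 and 22170 in BSN. It rose by 0.76 in PTN against BSN (SE 0.139, adjusted p = 0.0025) and by 0.46 in HRG against BSN (adjusted p = 0.0424). Eif3b, part of the core of the complex, ran the other way, with signals of 10263, 10331 and 9610 in HRG, of 9530, 7132 and 8359 in PTN, and of 12575, 15063 and 13184 in BSN. It fell by 0.71 in PTN against BSN (SE 0.136, adjusted p = 0.00314) and by 0.43 in HRG against BSN (adjusted p = 0.0488). The PTN against BSN calls of both genes held under all alternatives run.

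Eif3k, a peripheral subunit, had signals of 7245, 5023 and 5769 in HRG, of 5011, 3540 and 4150 in PTN, and of 3053, 4464 and 2644 in BSN, and rose by 0.84 in HRG against BSN (adjusted p = 0.0139). Eif3m averaged 30065 ± 2299 in HRG, 27770 ± 2928 in PTN and 22953 ± 1647 in BSN, and rose by 0.39 in HRG against BSN (adjusted p = 0.0426). The HRG against BSN calls of the eIF3 subunits were not stable. That of Eif3k was lost without BSN replicate 1 or 3 or HRG replicate 1 (adjusted p from 0.0554 to 0.0714). That of Eif3b was also lost with the replicate block (adjusted p = 0.0619) and after median centring (adjusted p = 0.153). Those of Eif3h, Eif3m and Eif3b were each lost without any 1 HRG array, without any 1 BSN array and without PTN replicate 3 (adjusted p from 0.0524 to 0.174). All 3 were also lost without the filter or without the intensity trend (adjusted p from 0.06 to 0.0907). Quantile normalization ended those of Eif3h and Eif3m (adjusted p of 0.0828 and 0.096).

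The eIF1 family, which helps select the start codon, was measured by 4 probe sets. None passed in HRG against BSN (0 at an unadjusted p under 0.05). In HRG against PTN 1 fell, and in PTN against BSN 2 rose. The called shares of all kept probe sets were 15.8%, 25.8% and 22.5% in these comparisons. Eif1ax, which helps the small subunit scan for the start codon, had signals of 7573, 11031 and 11086 in HRG, of 9832, 15993 and 15395 in PTN, and of 8004, 7844 and 7610 in BSN. It rose by 0.78 in PTN against BSN (adjusted p = 0.0131), and the call was lost without PTN replicate 2 (adjusted p = 0.0516) or 3 (adjusted p = 0.0546). In HRG against PTN its log2 change of -0.46 did not pass (adjusted p = 0.103), except with the replicate block (adjusted p = 0.0498) or without PTN replicate 1 (adjusted p = 0.00622). Eif1b, a relative of the scanning factor eIF1, had signals of 1158, 1626 and 1745 in HRG, of 3091, 2260 and 2337 in PTN, and of 1678, 1821 and 1617 in BSN. PTN lay above all other arrays, and the log2 change was -0.76 in HRG against PTN (SE 0.178, adjusted p = 0.00709), which held under all alternatives run, and 0.57 in PTN against BSN (adjusted p = 0.0367). The PTN against BSN call was lost without BSN replicate 1, 2 or 3 or PTN replicate 1 or 3 (adjusted p from 0.0561 to 0.114), and without the filter (adjusted p = 0.0653). Eif1a and Eif1ad, the other members, did not pass in any comparison (log2 changes from -0.29 to 0.38).

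The eIF2 arm, which brings the initiator tRNA and is checked by stress kinases, gave 1 call. Eif2s1, the subunit phosphorylated by those kinases, had signals of 15603, 17083 and 15379 in HRG, of 9954, 14277 and 11341 in PTN, and of 16759, 15413 and 13686 in BSN. It rose in HRG against PTN (log2 0.45, adjusted p = 0.0384), a call lost in 11 of 19 alternatives, among them leaving out BSN replicate 2, any 1 HRG array, or PTN replicate 1 or 3 (adjusted p from 0.054 to 0.12). In PTN against BSN it did not pass, except with quantile normalization (adjusted p = 0.0203) or without PTN replicate 2 (adjusted p = 0.0274). None of 6 probe sets for the exchange factor eIF2B and none of 5 for the eIF2alpha kinases passed in any comparison. The called shares of all kept probe sets were 15.8% in HRG against BSN, 25.8% in HRG against PTN and 22.5% in PTN against BSN. At an unadjusted p under 0.05, eIF2B had 1, 0 and 0 and the kinases 1, 1 and 1 in HRG against BSN, HRG against PTN and PTN against BSN. The endoplasmic reticulum kinase Eif2ak3 (PERK) averaged 2314 ± 215 in HRG, 1512 ± 618 in PTN and 1528 ± 463 in BSN. Its log2 change of 0.68 in HRG against PTN did not pass (adjusted p = 0.0796), but was 0.99 without PTN replicate 1 (adjusted p = 0.00548), and its change in HRG against BSN (0.64, adjusted p = 0.136) passed without that array as well (adjusted p = 0.038). Eif5a, the hypusine-bearing factor, averaged 4224 ± 296 in HRG, 5094 ± 794 in PTN and 4587 ± 568 in BSN, and Eif6, which keeps the subunits apart, averaged 11620 ± 1007, 9118 ± 1459 and 9527 ± 1245 in the same media. Neither passed (adjusted p from 0.0978 to 0.777), except Eif6 in HRG against PTN with the replicate block (adjusted p = 0.0449) or without PTN replicate 3 (adjusted p = 0.0472).

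Among elongation genes the regulator Eef2k was lower in PTN than in both other media by 2 of its 3 kept probe sets. This kinase phosphorylates the translocation factor eEF2 and so slows elongation. Probe set 1369638_at had signals of 2019, 2448 and 2454 in HRG, of 963, 1087 and 995 in PTN, and of 1436, 1707 and 1903 in BSN, so the 3 media did not overlap. Its log2 change was 1.17 in HRG against PTN (SE 0.152, adjusted p = 0.000127, 2.25-fold) and -0.71 in PTN against BSN (SE 0.152, adjusted p = 0.0059). Probe set 1389999_at had signals of 1386, 1704 and 1376 in HRG, of 680, 965 and 649 in PTN, and of 1616, 1516 and 1487 in BSN, with changes of 0.96 (adjusted p = 0.00175) and -1.02 (adjusted p = 0.00189) in these comparisons. Both probe sets kept both calls under all alternatives run. Another, 1387658_at, ran the same way in HRG against PTN without passing (log2 0.52, adjusted p = 0.0621) and gave -0.24 in PTN against BSN (adjusted p = 0.397), and 1 more was not kept. HRG against BSN did not pass for any of the 3 (log2 from -0.05 to 0.46). Under the alternatives, 1369638_at passed in 5 of 19 (adjusted p from 0.0121 to 0.0476). These were quantile normalization, median centring, only the groups compared, array weights and leaving out PTN replicate 1.

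Probe sets grouped as elongation factors by their symbols, Eef1e1 included, numbered 8. Of these, 2 rose and 3 fell in PTN against BSN (62.5%, beside 22.5% of all kept probe sets). None passed in HRG against BSN or HRG against PTN (beside 15.8% and 25.8% of all), where 4 and 1 had an unadjusted p under 0.05. Both that rose belong to Eef1a1, which delivers aminoacyl-tRNAs to the ribosome. Its probe set 1388110_at had signals of 67166, 59710 and 83493 in HRG, of 97769, 64694 and 85175 in PTN, and of 48583, 55892 and 47085 in BSN, and rose by 0.69 (adjusted p = 0.00848). In HRG against BSN it did not pass (log2 0.46, adjusted p = 0.0685), except in 6 of 19 alternatives (adjusted p from 0.0154 to 0.034). These were quantile normalization, median centring, only the groups compared, array weights, and leaving out PTN replicate 1 or 2. The other, 1370109_s_at, rose by 0.47 (adjusted p = 0.0331) with 1 PTN array below the highest BSN array. That second call was lost without BSN replicate 1 or 3 or PTN replicate 2 or 3 (adjusted p from 0.0598 to 0.133). It was also lost with quantile normalization, without the filter, without the intensity trend or with only the groups compared (adjusted p from 0.0626 to 0.0959).

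The 3 that fell, Eef1b2, Eef1d and Eef1g, are the subunits that reload eEF1A with GTP. Eef1b2 averaged 44772 ± 2178 in HRG, 35951 ± 6485 in PTN and 48951 ± 4144 in BSN, with a log2 change of -0.46 in PTN against BSN (adjusted p = 0.0295). Eef1d averaged 9887 ± 194 in HRG, 8448 ± 1497 in PTN and 11530 ± 533 in BSN (log2 -0.46, adjusted p = 0.0318). Eef1g averaged 32785 ± 4366 in HRG, 29538 ± 1543 in PTN and 39936 ± 1899 in BSN (log2 -0.44, adjusted p = 0.0185). The PTN arrays lay below the BSN arrays in all 3 genes. After median centring none of them passed (adjusted p from 0.254 to 0.352). Leaving out BSN replicate 1 or 3 also ended each call (adjusted p from 0.061 to 0.1), as did leaving out BSN replicate 2, PTN replicate 1 or PTN replicate 2 for Eef1d (adjusted p from 0.0509 to 0.0865) and PTN replicate 2 for Eef1g (adjusted p = 0.0608). With only the groups compared Eef1b2 and Eef1d did not pass (adjusted p of 0.0598 and 0.0662). Without the filter Eef1b2 and Eef1g did not (adjusted p of 0.0842 and 0.0522), nor did Eef1b2 without the intensity trend (adjusted p = 0.0613). Eef1a2, the form of eEF1A typical of muscle and neurons, averaged 758 ± 125 in HRG, 703 ± 72.2 in PTN and 823 ± 120 in BSN and did not pass (adjusted p from 0.474 to 0.77). Eef2, the translocation factor itself, averaged 11117 ± 1193 in HRG, 12209 ± 1555 in PTN and 11512 ± 3634 in BSN and did not pass (adjusted p from 0.657 to 0.98).

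Ribosomal protein genes have many processed pseudogenes and near-identical copies, so a probe set can read more than its named gene. The 27 kept ribosomal protein probe sets with several symbols gave 2 rises in HRG against BSN, 3 rises and 1 fall in HRG against PTN, and 1 rise and 1 fall in PTN against BSN. These were 7.41%, 14.8% and 7.41%, beside 15.8%, 25.8% and 22.5% of all kept probe sets. Their median log2 changes were 0.18, 0.23 and -0.04. The 4 factor probe sets with several symbols gave no call in HRG against BSN (1 at an unadjusted p under 0.05), 1 fall in HRG against PTN and 1 rise in PTN against BSN.

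Other genes of protein synthesis were counted by gene, with the probe set of highest signal. Of 69 mitochondrial ribosomal proteins, which serve the separate ribosomes of mitochondria, 6 rose and none fell in HRG against BSN (8.7%, beside 15.8% of all kept probe sets), 11 rose and none fell in HRG against PTN (15.9%, beside 25.8%), and 4 rose and 3 fell in PTN against BSN (10.1%, beside 22.5%). After median centring 6 of the 11 calls in HRG against PTN and 3 of the 7 in PTN against BSN were lost. Mrpl16 averaged 9586 ± 735 in HRG, 5149 ± 560 in PTN and 6655 ± 582 in BSN, and rose by 0.90 in HRG against PTN (adjusted p = 0.00033), a call that held under all alternatives run. Of 19 cytosolic aminoacyl-tRNA synthetases, which charge tRNAs, 1 rose in HRG against BSN, 2 rose in HRG against PTN and 4 fell in PTN against BSN (5.26%, 10.5% and 21.1%, beside 15.8%, 25.8% and 22.5% of all). All 4 falls were lost after median centring. Iars1 averaged 8184 ± 767 in HRG, 5158 ± 512 in PTN and 8354 ± 1345 in BSN, with a log2 change of 0.66 in HRG against PTN (adjusted p = 0.00524) and -0.69 in PTN against BSN (adjusted p = 0.00593, and 0.0762 after centring).

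Ribosome biogenesis genes gave the largest single change of these lists. Of 26, 1 rose and 1 fell in HRG against BSN, 1 rose and 4 fell in HRG against PTN, and 4 rose and 2 fell in PTN against BSN (7.69%, 19.2% and 23.1%, beside 15.8%, 25.8% and 22.5% of all). Gnl3, the nucleolar GTPase nucleostemin, averaged 9571 ± 1577 in HRG, 20567 ± 2048 in PTN and 7765 ± 532 in BSN. It fell by 1.11 on the log2 scale in HRG against PTN (adjusted p = 0.00013) and rose by 1.40 in PTN against BSN (adjusted p = 6.61e-05). Of 15 genes of the mTOR pathway and S6 kinases, 1 rose in HRG against BSN, 2 rose and 1 fell in HRG against PTN, and 1 rose and 2 fell in PTN against BSN (6.67%, 20.0% and 20.0%). Sesn1 rose by 0.91 in HRG against BSN (adjusted p = 0.000316) and by 0.63 in HRG against PTN (adjusted p = 0.00267). Rps6kb1, a kinase of Rps6, averaged 4570 ± 792 in HRG, 7437 ± 1284 in PTN and 4304 ± 130 in BSN, and rose by 0.77 in PTN against BSN (adjusted p = 0.00597). Larp1, which binds the pyrimidine-rich start of ribosomal protein mRNAs, averaged 10168 ± 2355 in HRG, 5709 ± 1906 in PTN and 11903 ± 2673 in BSN, and fell by 1.08 in PTN against BSN (adjusted p = 0.0077). The calls given for Gnl3, Sesn1, Rps6kb1 and Larp1 held under all alternatives run. Of 7 release and nascent chain factors, 2 fell in HRG against PTN and 1 rose in PTN against BSN (28.6% and 14.3%).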

How the data were processed

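RNA of cultured ureteric buds was amplified by 2 rounds of in vitro transcription and hybridised, in 3 samples per medium, to Affymetrix rat 230A arrays, per the labels' protocols. GCOS made the deposited signal intensities, per the submitters' processing notes (settings: not given in the sources used here). Without their top and bottom 2%, the arrays had mean signals of 2500.48 to 2500.58, and the authors' intensities were used unscaled. Of 15923 probe sets, 57 controls were set aside, and 10106 were kept, with a signal past the 40th percentile of the array in 3 or more of the 9 samples. Symbols came from the platform table (1 symbol for 12789 probe sets, several for 312, none for 2822). Signals were taken as log2(signal + 16), and limma 3.58.1 in R 4.3.3 (lmFit, contrasts.fit, eBayes with an intensity trend) was fitted to all 9 arrays, which left 6 residual degrees of freedom, 12.7 after moderation. P-values were adjusted over all kept probe sets within each comparison. The comparisons share media and so are not independent. The 3 arrays per medium limit precision. The fit was tested on simulated data.

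Members and lists were chosen with earlier results of these data known. Named were the 4 largest rises and falls per class and comparison whose arrays did not overlap, 22 genes always named where measured, and up to 2 highest and lowest per context list. The calls of Rpl37a, Eef1b2, Eef1d, Eef1g and the brighter Eif4g1 probe set, the second contrasts of Rps24, Rpl14, Eif1b and Eif4enif1, and Rpl23a, Rpl11 and the genes added under other settings were named after their values were seen. HRG and PTN samples with the same number had deviations correlated at 0.266, 0.332 and 0.118. HRG and BSN gave -0.0551 to 0.13, and PTN and BSN -0.097 to -0.0112. Samples with different numbers were not set against each other in this way, so pairing was not established. Sequences are from RefSeq (GRCr8). Alternatives were quantile normalization, median centring, pseudocounts of 1 and 64, no filter, a 60th percentile filter, no trend, only the groups compared, the replicate block, array weights, each array left out, and, for counts, no _s_at or _x_at probe sets or 1 probe set a gene. Adding probe sets with several symbols was chosen after seeing the data.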

Additional observations from a re-analysis of the deposited data

How the results depend on the processing

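Of 1902 recomputed values of single named genes, 165 lost a call, 28 gained one and none reversed a called direction. Signs of changes that did not pass were not held to this. The 1902 include genes without a call in a comparison, which had none to lose. Of the 49 calls, 28 were lost in at least 1 alternative. Ribosomal proteins in HRG against BSN numbered 1 after quantile normalization or without the filter, 0 without the trend, 4 with only these groups, with array weights or with several-symbol probe sets, and 0 to 3 with arrays left out in turn, against 2. Factors there numbered 2 without the filter, 3 without the trend, 10 with only these groups, 11 with array weights, and 1 to 11 with arrays left out, against 6. In HRG against PTN ribosomal proteins numbered 3 with only these groups, 9 with the replicate block or with several-symbol probe sets, 13 with array weights, and 2 to 15 with arrays left out, against 5. Factors numbered 14 with array weights and 5 to 14 with arrays left out, against 8, and their median change was -0.15 after centring, 0.03 with array weights and -0.06 to 0.03 with arrays left out. In PTN against BSN ribosomal proteins numbered 17 with array weights, against 11, and factors 10 to 20 with arrays left out, against 17, with a median of 0.16 after centring. The highest counts in HRG against PTN came without PTN replicate 1. Calls over all 10106 kept probe sets moved too. In HRG against BSN they numbered 2138 with only these groups, 2439 with array weights and 1053 to 2225 with arrays left out, against 1594. In HRG against PTN they numbered 2162, 3460 and 1882 to 3109 in the same settings, against 2603. In PTN against BSN they numbered 1804, 3480 and 1358 to 3222, against 2276. With the replicate block the 2 factor falls in HRG against BSN were lost (5 rises and no fall). Probe sets near the lower part of the array were not tested, so a change in them was not detectable here.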
